A study of Mus musculus with 7 samples.

Results

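Caveolae are small flask-shaped pits of the plasma membrane, and 10 mouse genes for proteins that build, coat or shape them, or that shape endosomal membranes, were followed in haematopoietic stem cells (HSCs) of old and young mice. The set was made of every row of the deposited count table with 1 of 10 symbols, out of 24015 genes: the cavins Sdpr (Cavin2), Ptrf (Cavin1) and Prkcdbp (Cavin3), the caveolins Cav1 and Cav2, the EHD proteins Ehd1, Ehd2, Ehd3 and Ehd4, and Pacsin2. The family was chosen by protein function around Sdpr, a gene selected on its fold change and adjusted p in the comparison of old with young HSCs, so every value of that comparison is given here as a description and supports no statement about the family. The cells came from the bone marrow of C57BL/6 mice and were sorted by flow cytometry for Sca-1 and c-Kit without lineage markers (LSK), with CD150 present and CD48 absent; bulk sequencing read their polyadenylated RNA. There were 3 libraries labelled old and 4 labelled young, which share strain, tissue and sort and for which no genetic change or treatment is stated. Neither the ages nor whether a library came from 1 mouse or a pool are stated, so p-values measure the spread between these libraries, part of which may be technical.

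Caveolins are integral proteins that insert a hairpin into the inner leaflet of the membrane, and cavins assemble on them from the cytosol as a coat. Cavin1 is known as the cavin that caveola formation needs, while Cavin2 and Cavin3 bind to it and affect the shape and budding of the pits. EHD proteins are membrane-binding ATPases related to dynamins in fold: EHD2 sits at the neck of caveolae, and EHD1, EHD3 and EHD4 act mainly in traffic through early and recycling endosomes. Pacsin2 is an F-BAR protein that bends membranes and helps to shape caveolae. Caveolae are abundant in endothelial cells, adipocytes and muscle and are scarce in most blood cells, and Cavin2 is known from human platelets as a phosphatidylserine-binding protein.

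The promoters of 5 of these genes are shown because they belong to the genes with the clearest contrasts below: Sdpr, Ehd3 and Ehd4, whose old and young libraries did not overlap, and the neighbouring genes Cav2 and Cav1, of which Cav2 was read in every library and Cav1 in a single library. Each runs 5′ to 3′ on the gene's strand over 300 bases, from 250 before to 50 after the transcript start in RefSeq (build GRCm38.p6, which is not the mm9 build of the counts). The windows are chr1:51288876-51289175 on the plus strand for Sdpr, chr17:73804591-73804890 on the plus strand for Ehd3, chr2:120154526-120154825 on the minus strand for Ehd4, chr6:17280935-17281234 on the plus strand for Cav2 and chr6:17306085-17306384 on the plus strand for the first of 2 starts of Cav1. Capitals mark matches, on either strand, to the motifs named after the sequences.
Sdpr: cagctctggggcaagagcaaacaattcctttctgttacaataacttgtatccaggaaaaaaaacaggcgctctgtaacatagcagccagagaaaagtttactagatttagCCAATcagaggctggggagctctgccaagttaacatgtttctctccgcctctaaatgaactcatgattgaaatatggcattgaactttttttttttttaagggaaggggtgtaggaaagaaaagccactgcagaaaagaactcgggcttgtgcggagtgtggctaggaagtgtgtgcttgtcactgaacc
Ehd3: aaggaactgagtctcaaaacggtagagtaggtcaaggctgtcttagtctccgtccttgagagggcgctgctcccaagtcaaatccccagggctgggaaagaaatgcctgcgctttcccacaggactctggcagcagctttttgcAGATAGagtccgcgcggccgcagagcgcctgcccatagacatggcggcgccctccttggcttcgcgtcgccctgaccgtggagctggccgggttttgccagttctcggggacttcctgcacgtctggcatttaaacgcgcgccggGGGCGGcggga
Ehd4: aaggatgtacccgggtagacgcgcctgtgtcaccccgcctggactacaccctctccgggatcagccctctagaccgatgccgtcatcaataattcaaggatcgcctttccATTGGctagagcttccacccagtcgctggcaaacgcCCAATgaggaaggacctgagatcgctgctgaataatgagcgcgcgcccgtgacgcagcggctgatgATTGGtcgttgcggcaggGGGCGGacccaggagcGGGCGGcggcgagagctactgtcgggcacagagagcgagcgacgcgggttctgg
Cav2: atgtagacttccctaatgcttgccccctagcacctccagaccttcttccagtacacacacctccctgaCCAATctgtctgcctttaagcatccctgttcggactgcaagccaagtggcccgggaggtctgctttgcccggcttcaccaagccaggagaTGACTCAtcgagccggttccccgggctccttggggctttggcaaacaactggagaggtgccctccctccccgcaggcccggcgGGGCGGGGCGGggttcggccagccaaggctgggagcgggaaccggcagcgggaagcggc
Cav1: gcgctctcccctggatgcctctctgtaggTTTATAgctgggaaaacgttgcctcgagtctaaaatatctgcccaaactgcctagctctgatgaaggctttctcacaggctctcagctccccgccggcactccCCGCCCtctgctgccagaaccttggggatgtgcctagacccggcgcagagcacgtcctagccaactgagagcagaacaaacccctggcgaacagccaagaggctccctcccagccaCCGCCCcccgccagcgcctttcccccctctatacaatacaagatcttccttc

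The motifs searched were the GATA factor motif (AGATAA, also with T as its first or G as its last letter), the GC box (GGGCGG), the CCAAT box (CCAAT), the TATA box (TATAAA), the AP-1 motif (TGANTCA) and an ETS core (CGGAAG). Of the 32817 promoter windows in the RefSeq table, 29.8% held the GATA factor motif, 35.6% a GC box, 37.4% a CCAAT box, 13.6% a TATA box, 7.81% an AP-1 motif and 16.9% an ETS core. The Sdpr window held 1 CCAAT box and none of the other motifs. It was also the poorest of the 5 in CpG dinucleotides, with 4, while the median of all windows was 7. The Ehd4 window held 3 CCAAT boxes, 2 GC boxes and 29 CpG dinucleotides, and the Ehd3 window 1 GATA factor motif, 1 GC box and 24 CpG dinucleotides. The Cav2 window held 2 GC boxes that share a base, 1 CCAAT box and 1 AP-1 motif, and the Cav1 window 2 GC boxes and 1 TATA box letter match on the opposite strand. These matches describe the letters of the windows and say nothing of factor binding. A window was found for 8 of the 10 genes.

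The libraries held 27369677 to 32401925 counts in old HSCs and 22203806 to 27146186 in young HSCs. Levels are given as CPM, counts scaled to 1000000 per library after TMM correction, and a count of 0 allowed 0.0929 to 0.137 CPM, the worth of 3 counts, for counting error only. All 14 genes of the HSC marker list were read in all 3 old libraries, and 13 or 14 in the young libraries. Young 1 and young 2 stood apart from the other libraries, young 1 on the first principal component and young 2 on the second. The difference between the ages was tested in edgeR (quasi-likelihood) over the 11506 genes with enough counts, with Benjamini-Hochberg adjustment over all of them and a threshold of 0.05. Of the 10 genes, 9 passed the filter on low counts, and Cav1 did not. In bulk RNA, a larger share of cells that express a gene and more RNA of it per cell cannot be told apart.

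Sdpr, which encodes the coat protein Cavin2, was the gene of the family with the clearest separation by age. It had 380.2, 303 and 342 CPM in the old libraries, against 78.1, 83.8, 89.8 and 107 CPM in the young libraries. The lowest old library was well above the highest young library, and the young libraries lay close together, young 1 and young 2 included. The means were 342 ± 38.5 CPM in old HSCs (SD, n = 3) and 89.7 ± 12.6 CPM in young HSCs (SD, n = 4), a log2 fold change of 1.93 ± 0.22 (SE, edgeR, adjusted p = 0.0105), or 3.81-fold higher in old. By p-value it ranked 8 among the 11506 genes. The call was lost without old 1 (adjusted p = 0.117), without old 3 (adjusted p = 0.0923) and without both young 1 and young 2 (adjusted p = 0.0707), with log2 fold changes of 1.84, 1.93 and 1.79 in these edgeR fits.

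**Figure D1:**
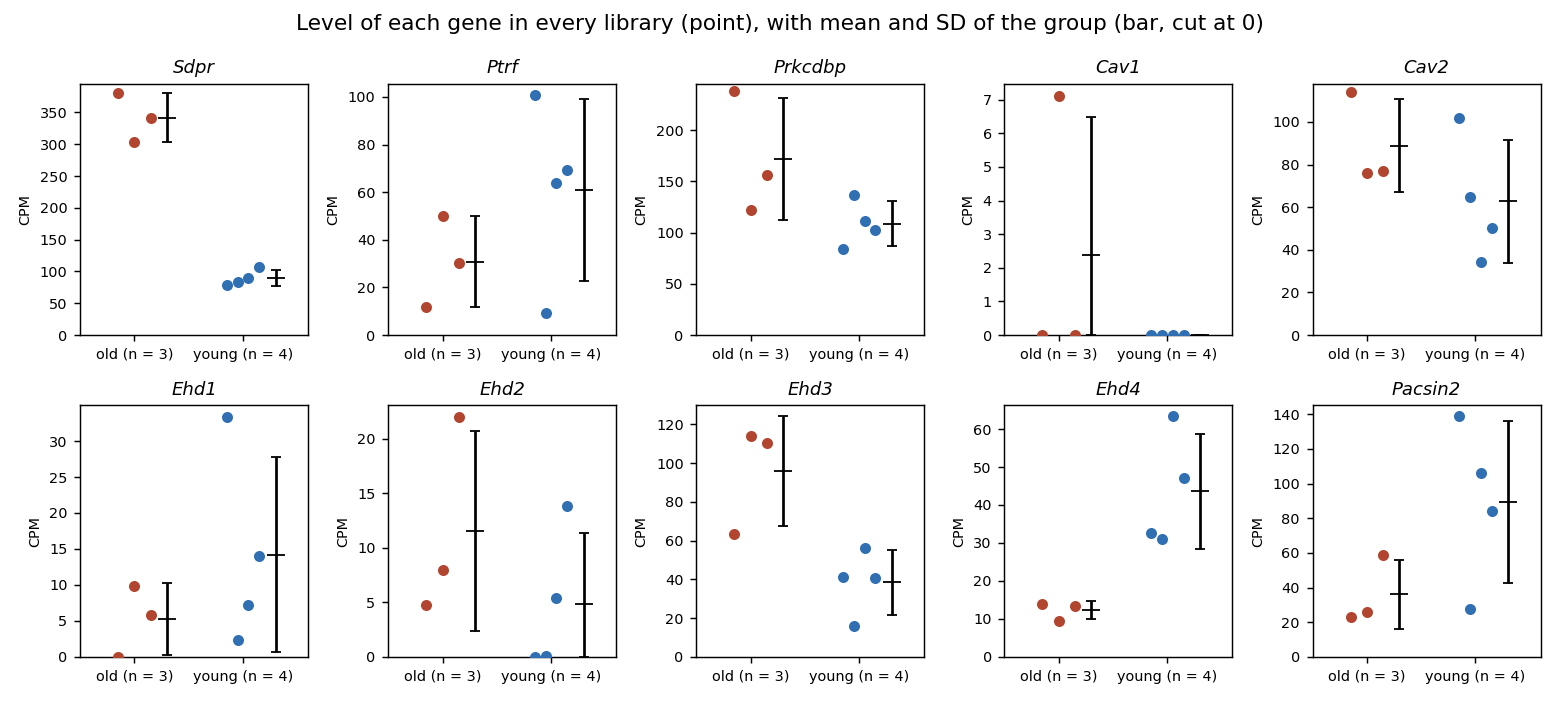
Levels of the 10 genes in every library, in CPM (vertical axis, a scale of its own for each gene), with old HSCs left of young HSCs; points are libraries and bars show the mean and SD of 3 old or 4 young libraries. Sdpr and Ehd3 lie higher and Ehd4 lies lower in every old library than in any young library, and Cav1 is above 0 in old 2 alone.

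The other cavins did not separate the groups. Prkcdbp, which encodes Cavin3, a protein first described as binding protein kinase C delta, had 238, 122 and 156 CPM in old libraries, against 84.4, 137, 112 and 103 CPM in young libraries. Young 2 lay above old 2, and the log2 fold change was 0.66 ± 0.30 (adjusted p = 0.559, edgeR). Part of its transcript, 20.1% of its 50-base stretches, is shared with a gene model on the opposite strand that the count table does not hold. The library kit does not mark strand, so RNA from either strand there could have been counted for Prkcdbp.

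Ptrf, which encodes Cavin1, had 11.9, 50.2 and 30.2 CPM in old libraries, against 101, 9.09, 64.0 and 69.2 CPM in young libraries. Young 2 held the lowest level of all, below each old library, while the 3 other young libraries were above every old library. The mean was 30.8 ± 19.1 CPM in old HSCs and 60.8 ± 38.2 CPM in young HSCs (SD), and the log2 fold change of -0.98 ± 0.79 did not pass (adjusted p = 0.869, edgeR). Cavin1 transcripts were thus the most variable of the cavins, and the difference between groups was within the spread of the young libraries.

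The caveolins were read very unequally. Cav1, whose product forms the caveolar scaffold, had 7.12 CPM in old 2, from 230 counts, and no count in the other 6 libraries. With a single library above 0, no fold change is given. Cav2, its partner, which is known in other cells to need Cav1 to reach the surface, had 114, 75.9 and 76.9 CPM in old libraries, against 102, 64.7, 34.1 and 50.1 CPM in young libraries. Only young 1 reached into the range of the old libraries. The Cav2 means were 88.9 ± 21.7 CPM in old HSCs and 62.8 ± 29.0 CPM in young HSCs (SD), with a log2 fold change of 0.50 ± 0.42 (adjusted p = 0.884, edgeR). No 50-base stretch of either transcript is shared with another gene of the annotation, so reads of Cav1 could not have been assigned to Cav2 by sequence identity of that length.

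Of the EHD proteins, Ehd3 and Ehd4 lay in opposite directions. Ehd3, which acts in transport from early to recycling endosomes, had 63.1, 114 and 110.4 CPM in old libraries, against 41.0, 15.8, 56.1 and 40.7 CPM in young libraries. All old libraries were above all young libraries, with a gap of a few CPM between old 1 and young 3. The log2 fold change was 1.32 ± 0.47 (unadjusted p = 0.0206, adjusted p = 0.371, edgeR).

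Ehd4, which acts at early endosomes, had 14.0, 9.56 and 13.3 CPM in old libraries, against 32.5, 31.1, 63.5 and 47.1 CPM in young libraries. Every old library was below every young library. The means were 12.3 ± 2.41 CPM in old HSCs and 43.6 ± 15.1 CPM in young HSCs (SD), and the log2 fold change of -1.82 ± 0.62 missed the threshold in edgeR (unadjusted p = 0.0155, adjusted p = 0.340). DESeq2 called it lower (log2 fold change -1.84, adjusted p = 0.00565).

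Ehd1 and Ehd2 were the scarcest of the genes read in several libraries. Ehd1, which drives exit from recycling endosomes, had no count in old 1 and 9.91 and 5.88 CPM in old 2 and old 3, against 33.3, 2.37, 7.19 and 14.0 CPM in young libraries. Ehd2, the EHD protein of caveolae, had 4.76, 7.96 and 21.9 CPM in old libraries, against no count in young 1, 0.0457 CPM from 1 count in young 2, and 5.42 and 13.8 CPM in young 3 and young 4. Both genes overlapped between the groups and varied several-fold within them, and neither passed (adjusted p = 0.945 for Ehd1 and 0.970 for Ehd2, edgeR). No 50-base stretch of any EHD transcript is shared with another EHD gene.

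Pacsin2 had 23.1, 26.2 and 59.0 CPM in old libraries, against 139, 27.9, 106 and 84.4 CPM in young libraries. Young 2 fell among the old libraries, and the 3 other young libraries were above all of them. The mean was 36.1 ± 19.9 CPM in old HSCs and 89.4 ± 46.7 CPM in young HSCs (SD), and the log2 fold change of -1.31 ± 0.59 did not pass (adjusted p = 0.559, edgeR).

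**Figure D2:**
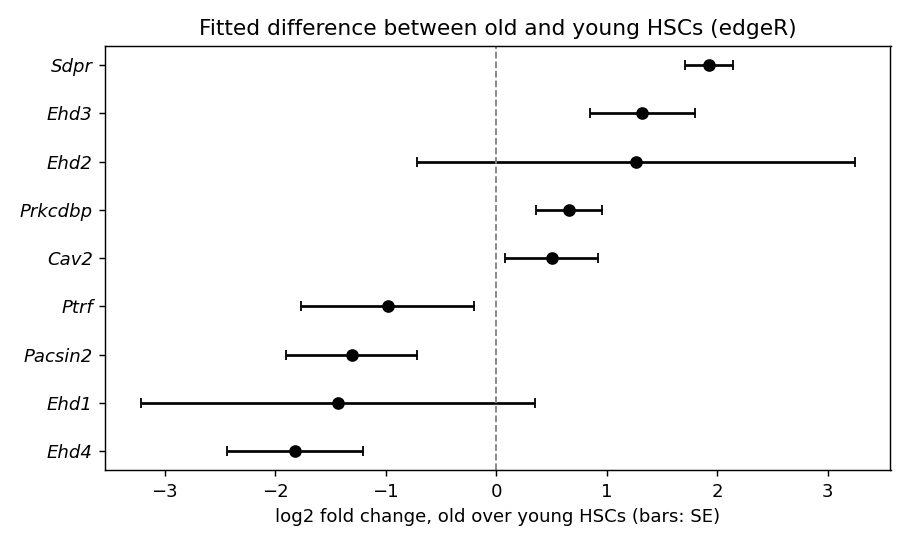
Fitted log2 fold change of old over young HSCs (horizontal axis) for the 9 genes with enough counts; points are edgeR estimates from 3 old and 4 young libraries and bars are SE. Values run from -1.82 for Ehd4 to 1.93 for Sdpr, and the bars of Ehd1 and Ehd2 are the widest.

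In all, 1 of the 9 tested genes passed the threshold, where 0.252% of all tested genes did, and since the family was chosen with this comparison known nothing is read from that count. Ehd3 and Ehd4 had an unadjusted p under 0.05 besides Sdpr, making 3 of 9, where 9.12% of all tested genes did. The libraries of the groups did not overlap for the same 3 genes, where that held for 12.7% of all tested genes. DESeq2 called 2 of the 9, Sdpr and Ehd4, where it called 5.06% of genes, and limma-voom called Sdpr alone, where it called 0.435%. The log2 fold change was positive for 5 genes and negative for 4 (median 0.50), while 5579 of the 11506 tested genes were positive (median -0.03). Each of the 9 genes kept its sign in the 7 fits that left out 1 library.

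Between genes, levels were compared per length, as CPM per kb of merged exon. In old HSCs the order ran from Sdpr (112 ± 12.6 CPM per kb) and Prkcdbp (104 ± 35.8) through Cav2 (26.7 ± 6.51), Ehd3 (14.6 ± 4.33), Ptrf (8.58 ± 5.34), Pacsin2 (7.35 ± 4.06), Ehd4 (3.07 ± 0.60), Ehd2 (2.26 ± 1.78) and Ehd1 (1.42 ± 1.34) to Cav1 (0.689 ± 1.19), each as mean and SD of the level over 3 libraries. Of the 9 neighbouring pairs in this order, 3 had library ranges that did not overlap: Prkcdbp above Cav2, Cav2 above Ehd3, and Pacsin2 above Ehd4. The other 6 neighbours did not differ beyond their spread.

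In young HSCs the order of these levels began with Prkcdbp (65.6 ± 13.2 CPM per kb), followed by Sdpr (29.4 ± 4.13), Cav2 (18.8 ± 8.70), Pacsin2 (18.2 ± 9.52), Ptrf (16.96 ± 10.6), Ehd4 (10.9 ± 3.78), Ehd3 (5.85 ± 2.55), Ehd1 (3.84 ± 3.67), Ehd2 (0.940 ± 1.27) and Cav1, which had no count. Here the ranges separated 1 of the 9 neighbouring pairs, Prkcdbp above Sdpr. Per kb of coding length instead of exon, the first 8 places in old HSCs were the same, and in young HSCs Cav2 came above Sdpr. By coding length the ranges of Prkcdbp and Cav2 overlapped in old HSCs. Within a library, the ratio of Cav2 to Prkcdbp was then 0.692 to 0.899 in old HSCs. In old HSCs, Sdpr, Prkcdbp and Cav2 were each above Ptrf and Cav1 in all 3 libraries without overlap, while in young HSCs Prkcdbp was the gene of these that lay above Ptrf without overlap.

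**Figure D3:**
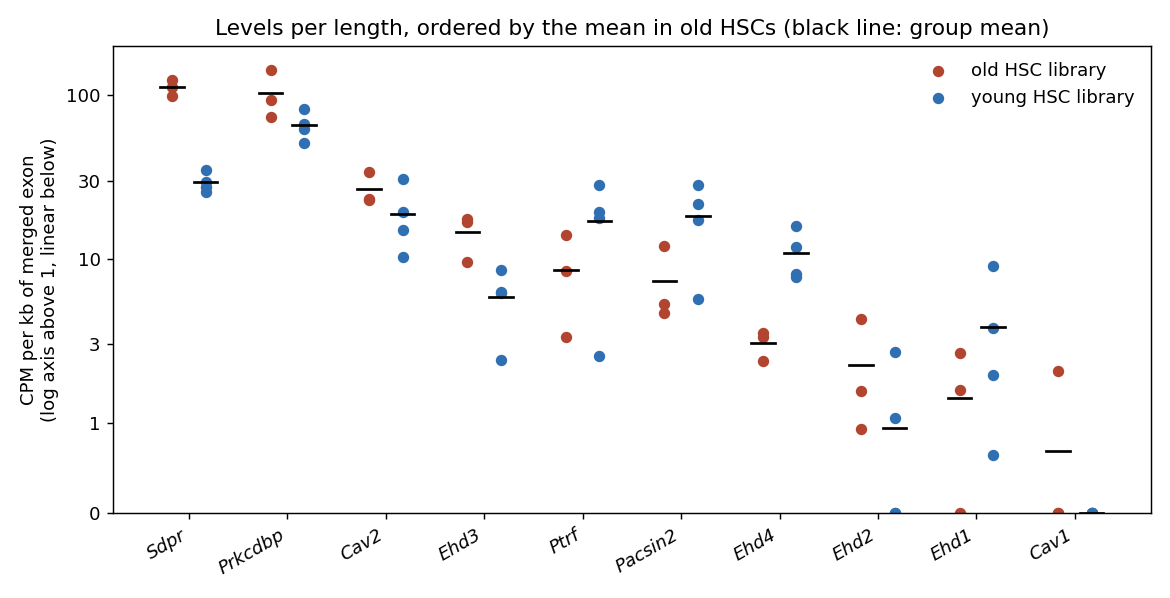
Level per length of the 10 genes (vertical axis, CPM per kb of merged exon, logarithmic above 1 and linear below), ordered by their mean in old HSCs; points are single libraries, old left of young for each gene, and black lines are group means. Sdpr and Prkcdbp lead in old HSCs at 112 and 104 CPM per kb, and Prkcdbp alone leads in young HSCs at 65.6 CPM per kb.

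The make-up within each protein family does not depend on how libraries are scaled. Of the summed CPM per kb of the cavins, Sdpr held 45.9, 53.2 and 52.2% in old libraries, against 24.5, 24.4, 25.7 and 30.2% in young libraries. Ptrf held 1.22, 7.50 and 3.93% in old libraries, against 26.9, 2.25, 15.6 and 16.6% in young libraries, and Prkcdbp held the remainder. The share of Sdpr was thus higher in every old library, while that of Ptrf overlapped through young 2. The summed level of the 3 cavins was 224 ± 42.9 CPM per kb in old HSCs and 112 ± 5.13 CPM per kb in young HSCs (SD). Within a library, the ratio of Sdpr to Prkcdbp per kb was 0.870 to 1.35 in old and 0.332 to 0.569 in young HSCs.

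By exon length, the EHD genes had close summed levels and a different make-up. Their summed level was 21.4 ± 6.41 CPM per kb in old HSCs and 21.5 ± 7.33 CPM per kb in young HSCs (SD, n = 3 and 4). By coding length it was 77.7 ± 23.4 CPM per kb in old HSCs and 62.6 ± 22.4 CPM per kb in young HSCs (SD). Of the sum by exon length, Ehd3 held 68.5, 72.5 and 64.7% in old libraries, against 26.7, 22.2, 31.2 and 25.4% in young libraries. Ehd4 held 24.9, 9.94 and 12.8% in old libraries, against 34.8, 71.8, 57.8 and 48.1% in young libraries. Ehd3 made up most of the EHD transcripts in each old library, and in each young library it was behind Ehd4. The ratio of Ehd3 to Ehd4 per kb was 2.75, 7.29 and 5.06 in old libraries, against 0.769, 0.309, 0.540 and 0.528 in young libraries. By coding length the ratio was 4.55 to 12.1 in old and 0.512 to 1.27 in young HSCs, so that Ehd3 was then ahead of Ehd4 in young 1 as well. These shares come from the same comparison as the choice of the family and are descriptions without a test.

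**Figure D4:**
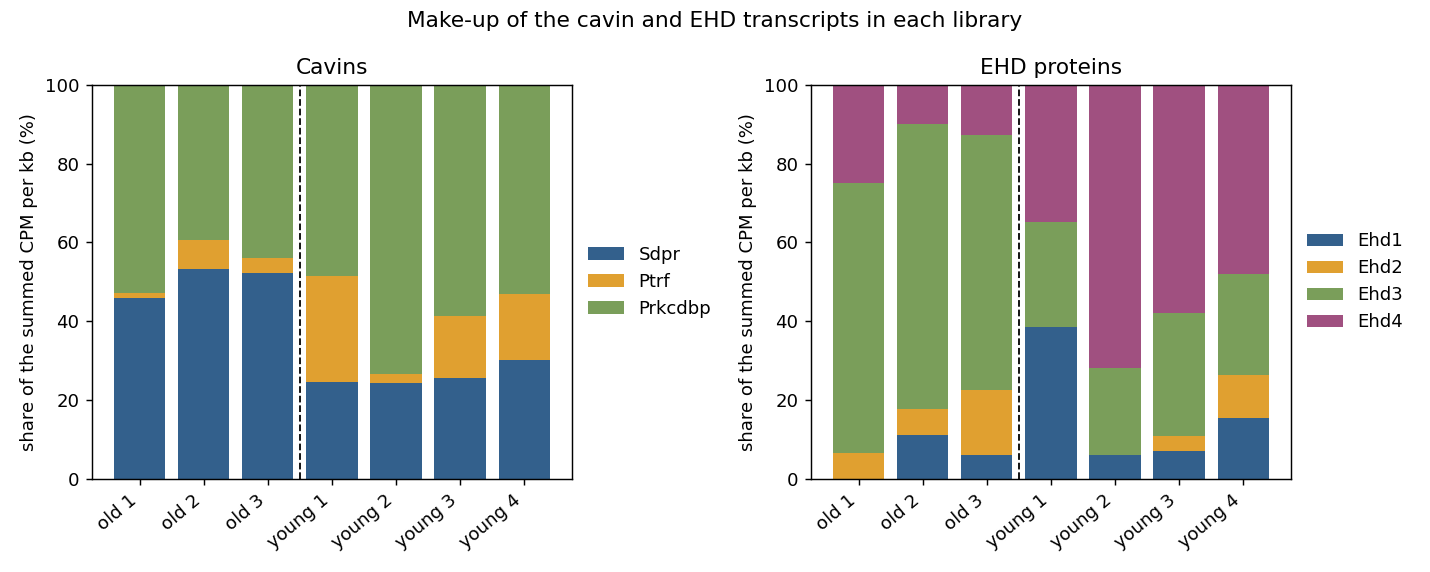
Share of each gene in the summed CPM per kb (vertical axis, percent) of the 3 cavins (left) and the 4 EHD genes (right) in each library, with old libraries left of the dashed line and young libraries right of it. Ehd3 holds 64.7 to 72.5% of the EHD sum in old libraries and 22.2 to 31.2% in young libraries.

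The young libraries differed from each other in more than 1 direction. Of the 9 genes with a count in young HSCs, 5 were lowest in young 2 (Ptrf, Ehd1, Ehd3, Ehd4 and Pacsin2) and Prkcdbp was highest there. In young 1, 4 were highest (Ptrf, Cav2, Ehd1 and Pacsin2) and 3 were lowest (Sdpr, Prkcdbp and Ehd2). Over the tested genes with a count in young HSCs, 28.6% were lowest in young 2 and 28.8% highest there, and 27.8% were lowest in young 1 and 23.7% highest there. Young 1 and young 2 are the libraries that stood apart on the principal components. Without both, the log2 fold change was 1.08 for Cav2 (adjusted p = 0.295), -2.17 for Ehd4 (adjusted p = 0.231), 0.98 for Ehd3 (adjusted p = 0.344) and -1.40 for Pacsin2 (adjusted p = 0.300) in edgeR, and none of the 9 passed, where 0.0582% of the genes tested in that fit did. An unadjusted p under 0.05 was found for 5 of the 9, where 13.9% of those genes had one.

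The 5 genes whose levels over the 7 libraries were most like those of Sdpr were sought among the 8598 genes that averaged 10 CPM or more, by the root mean square difference of log2 CPM after centring each gene. They were Sqrdl, a mitochondrial sulfide oxidoreductase (0.143), Ctf1, the cytokine cardiotrophin 1 (0.233), Lpar6, a lysophosphatidic acid receptor (0.237), Zfp36, which promotes messenger RNA decay (0.246), and Art4, an ADP-ribosyltransferase family member (0.251), the value being that difference on the log2 scale. Sqrdl had 188, 174 and 166 CPM in old libraries, against 34.1, 48.0, 47.9 and 62.0 CPM in young libraries. All 5 were higher in each old library than in any young library, as Sdpr was. Since the groups differ in level for all of them, likeness over these 7 libraries is mainly likeness in that difference. Lpar6 lies within another gene, Rb1, and counts without strand could mix both.

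**Figure D5:**
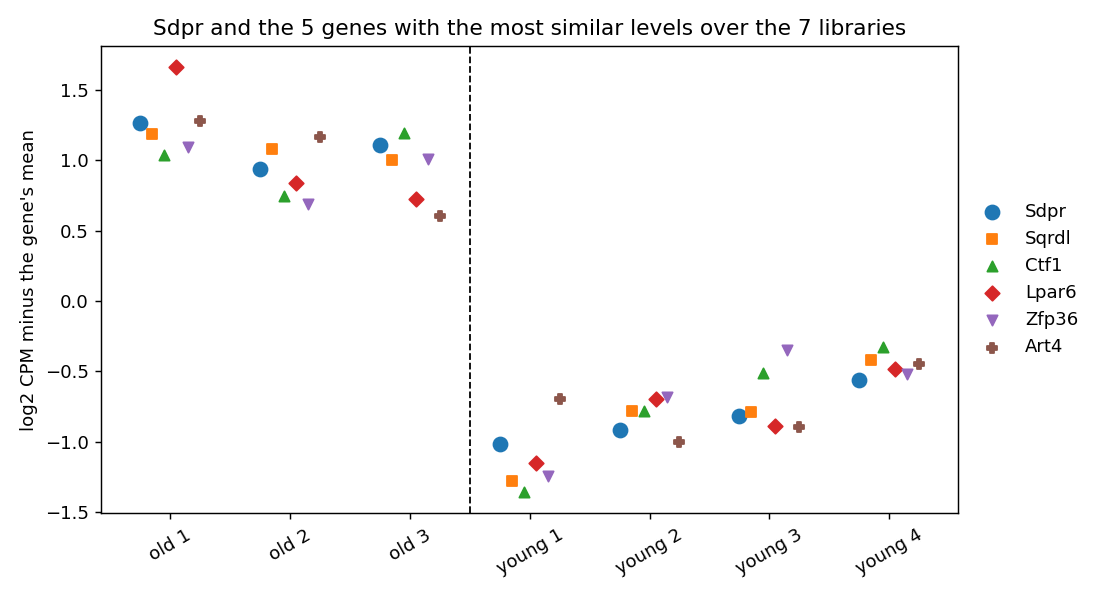
Levels of Sdpr and of the 5 genes most like it, as log2 CPM minus the gene's own mean over the 7 libraries (vertical axis), in each library (horizontal axis), with old libraries left of the dashed line. The root mean square difference from Sdpr runs from 0.143 for Sqrdl to 0.251 for Art4.

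Genes that work with caveolae and EHD proteins were looked at in 3 lists with 76 symbols, in which a gene could stand under 2 names, and 62 genes were tested. None passed in edgeR, where 0.252% of all tested genes did. At an unadjusted p under 0.05 in edgeR, 2 were higher and 3 lower, where 9.12% of all tested genes had such a p. Limma-voom called none, where it called 0.435% of all genes, and DESeq2 called 2 (Dnm3 and Rab11a), where it called 5.06%. Nothing is read from these counts. The median log2 fold change over the 62 was -0.08, close to the -0.03 of all tested genes.

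Of 17 caveola partners in the count table, 12 were tested, 4 of them with log2 fold changes above 0 (median -0.68). Src, the kinase that phosphorylates caveolin 1, had no count in the old libraries, against 0.526, 0, 7.55 and 1.95 CPM in the young libraries (unadjusted p = 0.0235, adjusted p = 0.392, edgeR). Prkca, protein kinase C alpha, which is known to bind Cavin2, had 32.6, 59.8 and 32.6 CPM in old libraries, against 15.1, 5.84, 30.02 and 9.40 CPM in young libraries. Its groups did not overlap, and it did not pass (adjusted p = 0.635). Flna, the actin crosslinker that tethers caveolae, had 21.3, 66.6 and 10.6 CPM in old libraries, against 89.0, 21.0, 126 and 88.3 CPM in young libraries, with young 2 again among the old libraries (adjusted p = 0.704).

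Of 27 other BAR proteins and dynamins in the count table, which bend or cut membranes, 22 were tested and 10 were positive (median -0.25). The dynamins differed among themselves. Dnm3 had 6.99, 22.5 and 7.61 CPM in old libraries and no count in any young library (adjusted p = 0.159 in edgeR and 2.78e-06 in DESeq2). Its old mean was 103-fold the worth of 3 counts per young library. Without old 2, which had the highest level, it was 60.7-fold. These figures allow for counting error only, and libraries of the same group differed by more than that, so they are not lower limits. Dnm2, the dynamin of most tissues, had 18.0, 22.3 and 12.7 CPM in old libraries, against 36.3, 24.4, 108 and 88.9 CPM in young libraries (log2 fold change -1.86 ± 0.64, adjusted p = 0.347, edgeR). For both the groups did not overlap. Sh3glb1, an endophilin, had a log2 fold change of 0.64 (adjusted p = 0.552).

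Of 29 EHD partners and genes of endosomal recycling and retromer in the count table, 28 were tested and 13 were positive (median -0.02). Rab11a, the small GTPase that marks recycling endosomes, had 1009, 758 and 949.6 CPM in old libraries, against 423, 544, 356 and 489.8 CPM in young libraries. Its groups did not overlap, with a log2 fold change of 0.998 ± 0.212 that missed the threshold in edgeR (adjusted p = 0.138) and passed in DESeq2 (adjusted p = 2.09e-04) and in an edgeR fit limited to genes averaging 50 CPM or more (adjusted p = 0.0300), which called 2.88% of its genes. Vps26b, a retromer subunit, had 24.4, 5.70 and 24.0 CPM in old libraries, against 63.1, 57.4, 47.7 and 49.4 CPM in young libraries (adjusted p = 0.438), while its paralogue Vps26a had a log2 fold change of 0.28 (adjusted p = 0.892, edgeR).

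Caveola genes are abundant in endothelial and stromal cells and Cavin2 in platelets, so markers of these cells were read beside them. The 15 endothelial markers summed to 452 to 516 CPM in old libraries and 310 to 401 CPM in young libraries, with 8 or 9 and 7 to 10 of the 15 read, and Egfl7 and Emcn, which HSCs also express, gave most of the sum. Cdh5, Flt1, Ptprb, Stab2, Lyve1 and Sox17 were at 0 in all old libraries. Of these, Stab2 (11.5 CPM), Cdh5 (4.07 CPM) and Ptprb (0.0438 CPM) were read in young 1 alone, and the others were at 0 throughout. Of the 9 endothelial markers tested, 7 had log2 fold changes above 0 (median 0.44). Emcn had 76.6, 99.7 and 113 CPM in old libraries, against 53.9, 70.4, 51.0 and 59.9 CPM in young libraries, with no overlap (unadjusted p = 0.0457, adjusted p = 0.524, edgeR). Ecscr had 45.7, 27.02 and 26.4 CPM in old libraries, against 0, 11.6, 10.7 and 16.5 CPM in young libraries, with no overlap (adjusted p = 0.870, edgeR). Cldn5 had 34.3, 11.3 and 64.0 CPM in old libraries, against 12.9, 6.62, 0 and 0 CPM in young libraries (adjusted p = 0.799, edgeR). The 15 stromal and adipocyte markers summed to 26.8 to 50.1 CPM in old and 8.85 to 28.6 CPM in young libraries, mostly from Lpl in old libraries, and Cxcl12, Lepr, Pdgfra, Col1a1, Col3a1, Dcn and Adipoq were at 0 in all old libraries. Sparc and Fabp4 were also at 0 in all old libraries. Sparc had 21.0 CPM in young 1 and 0.0696 CPM in young 4, and Fabp4 had 7.36, 2.51, 0 and 0.557 CPM in the young libraries. The 19 megakaryocyte and platelet markers summed to 1550 to 2247 CPM in old and 1253 to 1668 CPM in young libraries, which overlap, with Gp6 and P2ry12 at 0 throughout. Pf4, a platelet chemokine, had 168, 12.01 and 52.6 CPM in old libraries, against 118, 279, 61.3 and 104 CPM in young libraries. Selp, the adhesion receptor P-selectin, had 161, 792 and 405 CPM in old libraries, against 116, 42.2, 43.4 and 50.6 CPM in young libraries (unadjusted p = 5.36e-04, adjusted p = 0.106, edgeR). Vwf, the platelet adhesion factor, had 68.5, 83.5 and 50.9 CPM in old libraries, against 30.1, 29.6, 36.6 and 28.1 CPM in young libraries (unadjusted p = 0.0233, adjusted p = 0.390, edgeR). Gp9 had 91.5, 88.2 and 88.9 CPM in old libraries, against 82.1, 81.4, 82.5 and 71.3 CPM in young libraries (adjusted p = 0.969, edgeR). Selp, Vwf and Gp9 were higher in every old library, as Sdpr was. The groups did not overlap, in either direction, for 12.7% of all tested genes. Of the 16 megakaryocyte and platelet markers tested, 6 had log2 fold changes above 0 (median -0.28). Itga2b, the platelet integrin alpha subunit, had 4.95, 5.66 and 10.9 CPM in old libraries, against 59.0, 9.41, 46.2 and 76.5 CPM in young libraries (unadjusted p = 0.00986, adjusted p = 0.290, edgeR), with young 2 below old 3. The 14 HSC markers summed to 3963 to 4326 CPM in old and 2509 to 3503 CPM in young libraries. All 14 were tested, and 10 had log2 fold changes above 0 (median 0.44), while Kit, Meis1, Hlf and Ctnnal1 were below 0. At an unadjusted p under 0.05 in edgeR, 5 were higher and 0 lower, where 9.12% of all tested genes had such a p. Procr passed (log2 fold change 2.74, adjusted p = 0.00643, edgeR), where 0.252% of all tested genes did. The 13 mature myeloid markers summed to 555 to 801 CPM in old and 115 to 231 CPM in young libraries, mostly from Prtn3, and Ctsg, Ltf and Csf1r were at 0 throughout. Mpo was at 0 in the old libraries, against 24.6, 7.90, 0 and 0 CPM in the young libraries. Of the 4 mature myeloid markers tested, 2 had log2 fold changes above 0. Prtn3 had 772, 546 and 617 CPM in old libraries, against 206, 148, 98.4 and 152 CPM in young libraries. It passed (log2 fold change 2.10, adjusted p = 0.0242, edgeR), where 0.252% of all tested genes did. The 11 erythroid markers summed to 11.1 to 49.4 CPM in old and 73.9 to 109.9 CPM in young libraries, with both haemoglobin alpha genes at 0 throughout. The 16 lymphoid markers summed to 185 to 309 CPM in old and 265 to 583 CPM in young libraries. The endothelial and HSC sums and the mature myeloid sum, mostly Prtn3, were thus higher in every old library, as Sdpr and Ehd3 were. So was Lpl, and so were Selp, Vwf and Gp9, unlike most tested platelet markers. The erythroid sum was lower, as Ehd4 was. The part of these markers in those values was not tested.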

How the data were processed

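Polyadenylated RNA of sorted bone marrow HSCs was amplified as cDNA with the Smart-seq+ protocol and made into libraries with the Nextera XT kit, per the labels' protocols. In the authors' deposited table each value is a raw count of reads for a gene symbol in a library, a whole number neither scaled nor pooled. Per the submitters' processing notes, Trimmomatic, FastQC, STAR and featureCounts were used with build mm9; the sources used here give no versions, annotation or strand setting. Amplified copies were counted, since no molecular identifiers are stated.

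Libraries were grouped by their titles. Genes were filtered with filterByExpr (minimum count 10, minimum total 15), scaled with TMM and tested with glmQLFTest in edgeR 4.0.16 (R 4.3.3), 2-sided, with group as the only term. SE was taken as the size of the log2 fold change over the square root of the F statistic. Alternatives used DESeq2 1.42.0, limma 3.58.1 (voom), other scalings and filters, a replicate block and libraries left out. Exon and coding lengths are merged intervals of GENCODE M21 on GRCm38 under later symbols, used as lengths only. The members and the gene lists were chosen with earlier results of these data known. Named genes are the 10 members, up to 3 tested genes per pathway list with the smallest p, the 5 genes most like Sdpr, and markers from fixed lists. Marker lists of HSCs and other cells come from general knowledge.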

Additional observations from a re-analysis of the deposited data

How the results depend on the processing

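Of the 9 tested genes, 1 passed the threshold with all libraries and the edgeR quasi-likelihood test. That number was 2 with DESeq2, 0 with the replicate number as a block (1 at an unadjusted p under 0.05), 0 to 1 without 1 library (0 without old 1 and without old 3), and 0 with young 1 and young 2 both left out, an alternative chosen after seeing the data. Under the block, the log2 fold change of Sdpr was 2.02 (adjusted p = 0.356). Libraries sharing a number did not deviate together (correlations of 0.03, -0.07 and -0.01 for numbers 1, 2 and 3), so no sign of pairing was seen. So few libraries cannot settle whether the numbers mark a pairing. The block left 0 of 11506 genes called, against 29 without it. No gene of the family changed sign in any alternative that gave it a value. Of the pathway lists, none of whose genes passed, DESeq2 called 1 among the BAR proteins and dynamins and 1 among the EHD partners, and the fit limited to genes averaging 50 CPM or more called 1 among the EHD partners. Over all genes, DESeq2 called 591 (5.06%), limma-voom 50 (0.435%), library size alone 16 and the fit limited to genes averaging 50 CPM or more 130 (2.88%). Ehd1, Ehd2 and Cav1 had no or few counts in several libraries, which limits what these libraries can show of them.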

Other observations

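Relatives of the 10 genes that are known from muscle or brain had no count or were read in few of the libraries. Cav3, the muscle caveolin, and Murc (Cavin4), the muscle cavin, had no count in any of the 7 libraries, which allows up to 0.0929 to 0.137 CPM per library for counting error only. Pacsin1, the brain form of Pacsin2, had 0.0384 CPM in old 3, from 1 count, and none elsewhere. Pacsin3 was read in old 3 at 1.65 CPM and in young 2 at 12.4 CPM and had no count in the 5 other libraries.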
